A study of Homo sapiens with 14 samples.

Results

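The miR-30 family was followed in human epicardial cells through their extracellular vesicles (EVs), small membrane-bound particles shed into the medium. It was taken as the 5p arms of miR-30a to miR-30e, named from the family and not from any measured value, which gave 5 of the 2632 miRNAs in the count table. Of these 5, 4 had a count in at least 1 library (447 miRNAs did in all), and only miR-30a-5p and miR-30d-5p were among the 47 miRNAs with enough counts to be tested.

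All groups came from pro-epicardial cells, precursors of the covering layer of the heart, made from 1 established line of human embryonic stem cells, hES-2. NT cells had no additive for the 8 days of culture (3 libraries). SB cells had 6 µM SB-431542, an inhibitor of the TGF-β type I receptor, for 8 days and are labelled mature epicardial (4 libraries). In the TGFb group TGF-β1 was given at 5 ng/ml for 4 days, followed by 4 days without additive (4 libraries), and in the FGF group basic FGF was given at 10 ng/ml throughout the 8 days (3 libraries). Medium filtered at 100 kDa replaced the first medium on day 4, and EVs were precipitated from what the cells had conditioned for 48 h by day 6 and again by day 8. The labels do not say whether replicates came from separate cultures, so the p-values below measure the spread between these samples, which may be technical. In EVs, a lower share of a miRNA cannot be told apart from fewer vesicles of the kind that carries it.

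A miRNA is cut from a hairpin precursor whose 2 arms, 5p and 3p, can each give a mature miRNA. The arm that is kept is loaded into an Argonaute protein and finds messenger RNAs through its seed, bases 2 to 8, so miRNAs with 1 seed share many targets. The miR-30 family is expressed in many tissues, and in heart it is known for repressing CCN2 (connective tissue growth factor). In epithelial cells it is known for repressing SNAI1, a transcription factor of the epithelial to mesenchymal transition that epicardial cells undergo.

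The mature sequences are shown because 1 seed defines the family and because members that differ by 1 base can be counted as one another. RefSeq (GRCh38.p14) gave sequences for 3 of the 5 members, and miR-30b-5p and miR-30d-5p are named only. The seed is in capitals, and the 3p arms of 2 hairpins follow because their counts bear on the results.
miR-30a-5p: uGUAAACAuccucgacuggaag
miR-30e-5p: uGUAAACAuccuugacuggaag
miR-30c-5p: uGUAAACAuccuacacucucagc
miR-30a-3p: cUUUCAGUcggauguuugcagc
miR-30e-3p: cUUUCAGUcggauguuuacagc
The 3 printed 5p arms have the same seed, GUAAACA, and are identical up to base 12. With positions counted from 1 at the 5′ end, miR-30a-5p and miR-30e-5p differ at 1 of 22 bases (C13U), while miR-30a-5p and miR-30c-5p differ at 5 of the 22 bases they share. The 3p arms of miR-30a and miR-30e also have 1 seed, UUUCAGU, and differ at 1 base (G18A). How reads were divided between such close sequences is not given in the sources used here, so the split between miR-30a and miR-30e is uncertain. miR-30b-5p and miR-30d-5p could not be compared in this way. Whether the same doubt holds for the split between miR-30a-5p and miR-30d-5p was therefore not checked.

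The hairpins of the 3 members with a printed sequence lie in 2 pairs on GRCh38 (GENCODE release 29). MIR30E (chr1:40754355-40754446, plus strand) and MIR30C1 (chr1:40757284-40757372, plus strand) lie 2837 bases apart in introns of NFYC, which codes for a subunit of the transcription factor NF-Y, on its strand. MIR30C2 (chr6:71376960-71377031, minus strand) and MIR30A (chr6:71403551-71403621, minus strand) lie 26519 bases apart in introns of the long non-coding genes LINC00472 and AL136164.2, on the same strand as both. MIR30C1 and MIR30C2 give the same miR-30c-5p, so its counts are a sum over both genes.

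The libraries were shallow, and this limits every value below. Totals ran from 115 to 14862 counts, with 9462 or fewer in 13 of the 14 libraries, and the 4 libraries under 500 counts held 115, 179, 231 and 345. Shares are percentages of all miRNA counts of a library, with 95% Wilson intervals that cover counting error only, and a count of 0 allows a share of up to 3 counts of the total. Some markers of other sources were scarce: red cell and serum miRNAs had 6 counts in all, with miR-451a, miR-144-3p and miR-144-5p at 0, and markers of pluripotent cells had 5 counts, with 6 of 8 at 0. The cardiomyocyte list had 1 detected member of 4 (miR-1-3p, 22 counts). Endothelial miR-126 (both arms) and hepatocyte miR-122-5p were not scarce, at 0.645% ± 1.05 and 0.478% ± 1.03 of counts (SD, n = 14). Each reached 3.91% in SB replicate 2. The epicardium has no miRNA marker of its own used here, so the label of the cells was not checked.

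The 5 members together took 1.81% ± 0.921 of the counts of a library (SD, n = 14), from 0.866% to 3.69%. That is 732 of 47091 counts. The order by mean share was miR-30d-5p (0.991% ± 0.606, SD, n = 14), miR-30a-5p (0.605% ± 0.655), miR-30e-5p (0.152% ± 0.173), miR-30c-5p (0.0607% ± 0.121) and miR-30b-5p (0). Neighbours in this order lay within 1 SD of each other, and miR-30b-5p was at 0 in all 14 libraries. Mature miRNAs have nearly the same length, so their counts can be set side by side, but library chemistry also favours some sequences over others and no measure of that is at hand. By total counts miR-30d-5p ranked 10th and miR-30a-5p 53rd in the whole table.

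The most abundant member, miR-30d-5p, was found in 13 of the 14 libraries. Its share was 1.82%, 0.793% and 0.396% in NT replicates 1, 3 and 4, from 270, 75 and 4 counts. In SB replicates 1 to 4 it was 2.03%, 1.68%, 1.54% and 1.09%, from 7, 3, 59 and 14 counts. The SB libraries were thus close together and the NT libraries far apart, with NT replicate 1 inside the SB range. In TGFb replicates 1 to 4 it was 1.13%, 0.433%, 0.735% and 0.397%, from 16, 1, 55 and 11 counts. In FGF replicates 3 and 4 it was 1.14% and 0.691%, from 37 and 6 counts. FGF replicate 2 had 0 of 115, which allows a share of up to 2.61%, above every value measured for this miRNA. The mean and SD were 1.00% ± 0.733 over the 3 NT libraries and 1.58% ± 0.389 over the 4 SB libraries. They were 0.673% ± 0.339 over the 4 TGFb libraries and 0.611% ± 0.575 over the 3 FGF libraries.

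**Figure D1:**
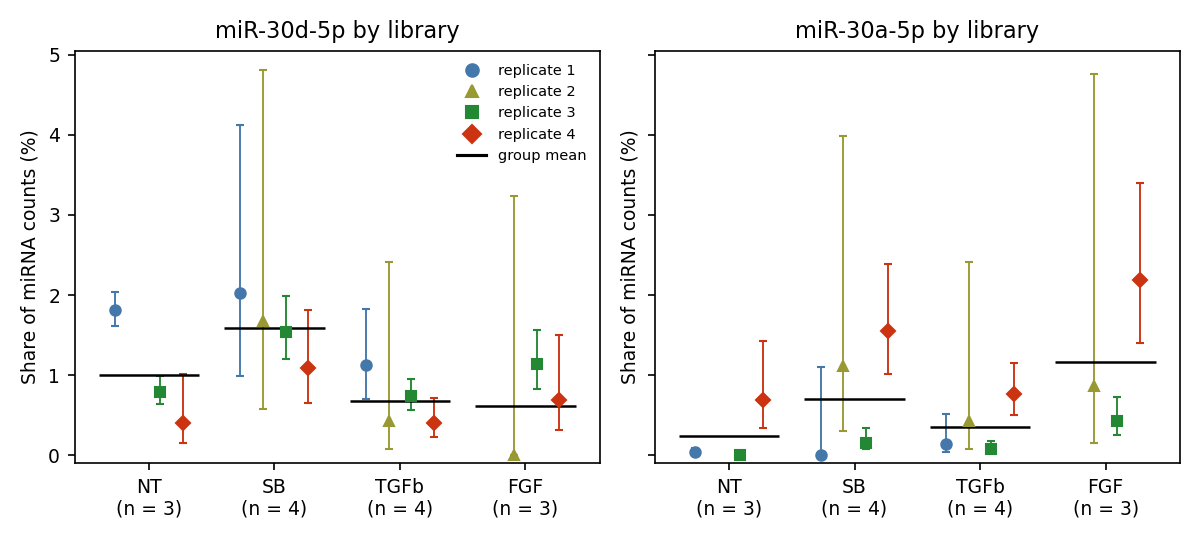
Share of all miRNA counts (%, y axis) of miR-30d-5p (left) and miR-30a-5p (right) in each library, by group on the x axis. Points are libraries with 95% Wilson intervals, symbols mark the replicate number and black lines are group means; miR-30a-5p is highest in replicate 4 of every group (0.693% to 2.19%), and miR-30d-5p in none.

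The second member, miR-30a-5p, had its highest observed share in the library numbered 4 of every group. In the libraries numbered 4 its share was 0.693% in NT, 1.56% in SB, 0.758% in TGFb and 2.19% in FGF, from 7, 20, 21 and 19 counts. In those numbered 3 it was 0 in NT (0 of 9462, which allows up to 0.0317%), 0.157% in SB, 0.0802% in TGFb and 0.432% in FGF, from 0, 6, 6 and 14 counts. In those numbered 1 it was 0.0404% in NT (6 counts), 0 in SB (0 of 345, which allows up to 0.870%) and 0.141% in TGFb (2 counts). The observed shares in number 4 did not overlap with those in numbers 1 and 3, but what the zero in SB replicate 1 allows reaches above NT and TGFb replicates 4. The shallow libraries numbered 2 were at 1.12% in SB, 0.433% in TGFb and 0.870% in FGF, but these rest on 2, 1 and 1 counts. Over all groups, the libraries numbered 4 held 67 miR-30a-5p counts in 5934 (1.13%, 95% Wilson interval 0.890% to 1.43%), and the other 10 libraries 38 in 41157 (0.0923%, 0.0673% to 0.127%). The pooled value of the others is weighted to NT replicates 1 and 3, the deepest libraries. With libraries weighted equally the means were 1.30% ± 0.711 (SD, n = 4) in number 4 and 0.327% ± 0.389 (n = 10) in the others. The labels do not say what a replicate number stands for, and this pattern was noticed in the values, so no test is given. A share highest in replicate 4 of all 4 groups was found for 5 of the 47 tested miRNAs (10.6%): miR-30a-5p, miR-16-5p, miR-148b-3p, miR-181a-5p and miR-1275.

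The makeup of the family within a library, which does not depend on the total, also differed by number. In the libraries numbered 4, miR-30a-5p took 53.8% (NT), 55.6% (SB), 63.6% (TGFb) and 59.4% (FGF) of the family's counts, and miR-30a-5p counts exceeded those of miR-30d-5p in 4 of 4. In the libraries numbered 1 and 3, miR-30d-5p exceeded miR-30a-5p in 7 of 7. Pooled over groups, miR-30d-5p took 94.5% of 310 family counts in number 1, 75.6% of 299 in number 3 and 30.7% of 114 in number 4 (95% Wilson intervals 91.4% to 96.5%, 70.4% to 80.1% and 23.0% to 39.7%). Of the 310 counts in number 1, 282 came from NT replicate 1. With libraries weighted equally the means were 90.6% ± 12.7 (SD, n = 3) in number 1, 74.7% ± 14.7 (n = 4) in number 3 and 30.4% ± 8.50 (n = 4) in number 4. The libraries numbered 1 (76.2% to 100%) and 3 (55.2% to 89.3%) overlapped. The libraries numbered 2 held 9 family counts together, too few to place.

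**Figure D2:**
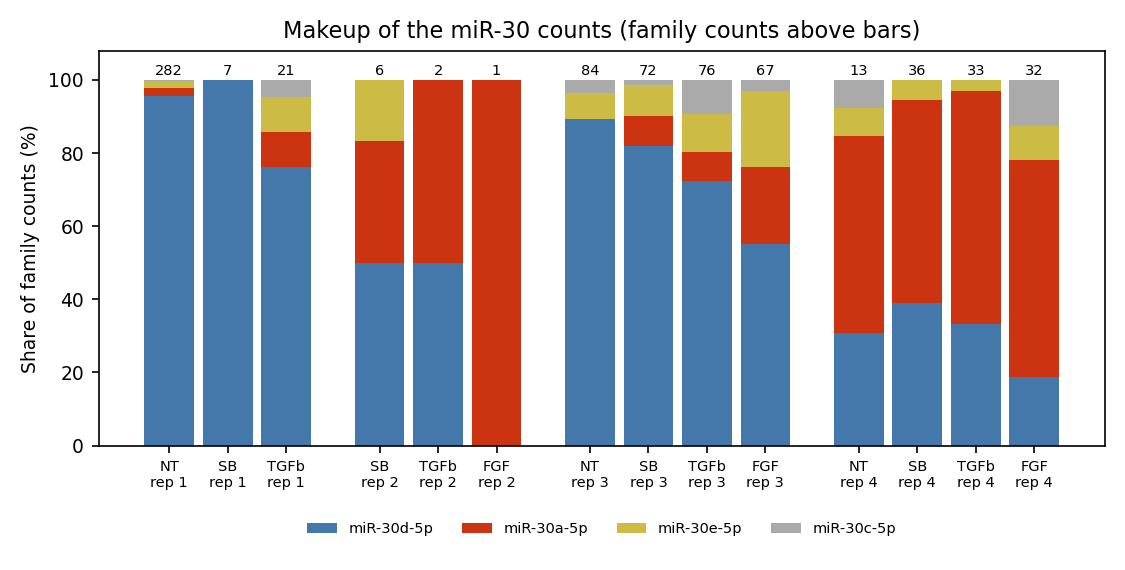
Share of the family's counts (%, y axis) taken by each of the 4 detected members in every library, ordered on the x axis by replicate number and then by group, with the family's counts above each bar. miR-30d-5p takes the larger part in each library numbered 1 or 3, and miR-30a-5p takes 53.8% to 63.6% in those numbered 4.

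The 3p arm of the same hairpin, miR-30a-3p, is a separate count and showed the same order. Its share was 0.297% in NT, 0.156% in SB, 0.397% in TGFb and 0.346% in FGF in the libraries numbered 4, from 3, 2, 11 and 3 counts. In those numbered 3 it was 0.0423%, 0.0523%, 0.0134% and 0.0309%, from 4, 2, 1 and 1 counts, and in those numbered 1 and 2 it had 2 counts in 1 library (NT replicate 1, 0.0135%). The observed shares were highest in number 4, again in 4 of 4 groups. The zeros of the shallow libraries do not bound this: they allow up to 0.870% in SB replicate 1, 1.68% in SB replicate 2, 1.30% in TGFb replicate 2 and 2.61% in FGF replicate 2, and TGFb replicate 1 allows up to 0.212%. Pooled over groups, number 4 held 19 counts in 5934 (0.320%, 95% Wilson interval 0.205% to 0.500%) and number 3 held 8 in 24007 (0.0333%, 0.0169% to 0.0657%). The ratio of the arms was alike in both sets: the 5p arm took 77.9% of 86 counts of the hairpin in the libraries numbered 4 (95% Wilson interval 68.1% to 85.4%) and 79.2% of 48 counts in the others (65.7% to 88.3%). NT replicate 3 was an exception, with 0 counts of the 5p arm and 4 of the 3p arm. Because miR-30a-3p and miR-30e-3p differ by 1 base, miR-30e was looked at for the same order. miR-30e-5p took 0.159% ± 0.134 (SD, n = 4) in the libraries numbered 4 and 0.190% ± 0.166 (n = 4) in those numbered 3, so it did not share it. miR-30e-3p had 5 counts in the libraries numbered 4 (0.0722% to 0.115%) and 14 in those numbered 3 (0 to 0.105%), which overlap. Its observed share was highest in replicate 4 in 3 of 4 groups, from 1 or 2 counts in each library numbered 4.

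**Figure D3:**
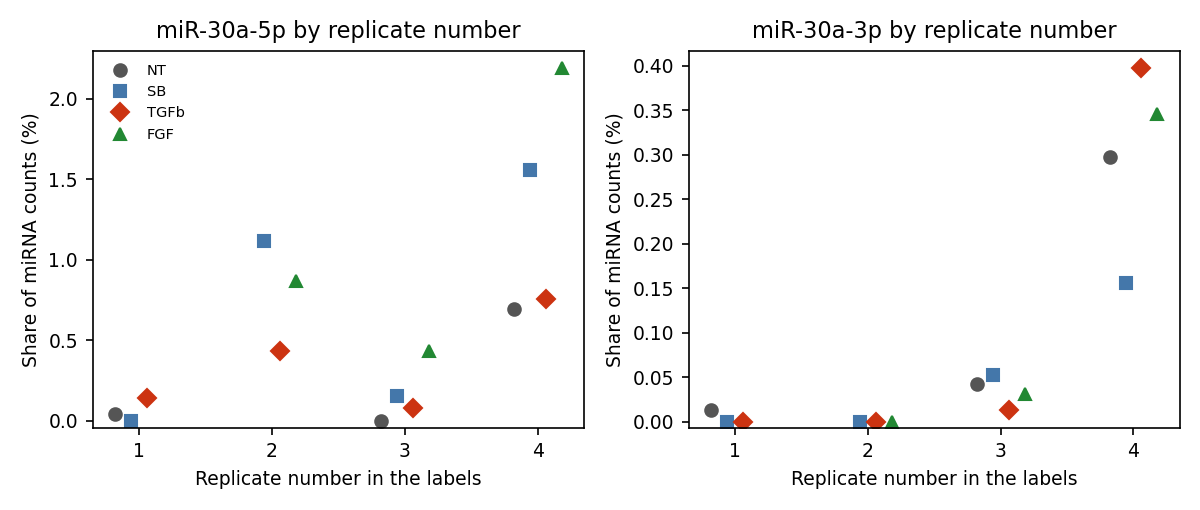
Share of all miRNA counts (%, y axes, of different scale) of miR-30a-5p (left) and miR-30a-3p (right) against the replicate number of the labels (x axis), 1 point per library and 1 symbol per group. For both arms the observed shares in number 4 (at least 0.693% for the 5p arm and 0.156% for the 3p arm) lie above those in numbers 1 and 3, where a zero in SB replicate 1 (345 counts) allows up to 0.870%.

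miR-122-5p, the abundant miRNA of hepatocytes, also had counts in all 4 libraries numbered 4 (0.396% in NT, 0.778% in SB, 0.144% in TGFb and 0.461% in FGF) and at most 0.0705% in those numbered 1 or 3, with 3.91% and 0.870% in SB and FGF replicates 2. Its part in the miR-30a pattern was not tested. The other markers gave no such order: endothelial miR-126 ran from 0 to 1.04% in number 4 and from 0.0535% to 0.802% in number 3. Totals of the libraries numbered 4 (868 to 2770) lay below those of number 3 (3241 to 9462) and within those of number 1 (345 to 14862).

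The authors' deposited adjusted values, which are whole numbers altered from the raw counts in a way that is not given in the sources used here, changed the members along the same numbers. miR-30a-5p was lowered in 4 of 4 libraries numbered 4 (from 67 to 19 in sum) and raised in 3 of the 4 numbered 3 (from 26 to 80). miR-30d-5p was raised in 4 of 4 numbered 4 (from 35 to 49), and lowered in 3 of 3 numbered 1 (from 293 to 180) and in 4 of 4 numbered 3 (from 226 to 211). After the adjustment miR-30d-5p exceeded miR-30a-5p in 4 of 4 libraries numbered 4. In FGF replicate 3 the order turned the other way, from 37 against 14 counts to adjusted values of 34 against 40.

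The 2 lesser members had at most 14 counts in a library. miR-30e-5p had 49 counts in 11 libraries, with the highest count in FGF replicate 3 (14 counts, 0.432%). SB replicate 2 had the highest share (0.559%), from 1 count. Its share was 0.0336%, 0.0634% and 0.0990% in NT replicates 1, 3 and 4. In the FGF libraries deeper than 500 counts it was 0.432% and 0.346%, from 14 and 3 counts. In the NT and TGFb libraries of that depth it was at most 0.141%. How many other miRNAs are separated in this subset of libraries was not counted, so the values are description only. The zeros of FGF replicate 2 and TGFb replicate 2 allow up to 2.61% and 1.30%, so neither places these groups. miR-30c-5p had 20 counts in 8 libraries, at most 7 in one (TGFb replicate 3), and shares from 0 to 0.461% (FGF replicate 4, 4 counts). Neither passed the filter on low counts, so neither was tested.

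miR-30b-5p had 0 counts in all 14 libraries, which over 47091 counts allows a share of up to 0.00637%. Set against that floor of 3 counts over all libraries, miR-30d-5p was at least 186-fold higher in counted reads. Of its 558 counts, 270 came from NT replicate 1. How reads were divided between close members is not given, so a count of 0 may not mean that miR-30b-5p was absent. The 3p arm of that hairpin, miR-30b-3p, was also at 0.

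The 3p arms of the hairpins were given as a list of 6, of which 4 were detected and 0 could be tested. The 5p arm was the more frequent one where both were seen: 105 against 29 counts for miR-30a (78.4%, 95% Wilson interval 70.6% to 84.5%), 49 against 23 for miR-30e (68.1%, 56.6% to 77.7%), and 20 against 5 for miR-30c (80.0%, 60.9% to 91.1%), whose 3p arms from MIR30C1 and MIR30C2 had 1 and 4 counts. miR-30d stood apart, with 558 counts of the 5p arm and 0 of miR-30d-3p, which was at least 186-fold lower at the floor of 3 counts over all libraries. The interval of its 5p share (99.3% to 100%) did not overlap those of the other 3.

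The family's observed summed share was lower in TGFb than in SB. It was 2.03%, 3.35%, 1.88% and 2.80% in SB replicates 1 to 4, from 7, 6, 72 and 36 counts, and 1.48%, 0.866%, 1.02% and 1.19% in TGFb, from 21, 2, 76 and 33 counts. The 2 groups did not overlap, and SB was the higher in 4 of 4 replicate numbers, which holds for miR-30d-5p alone too although its 2 groups overlap (1.09% in SB replicate 4 and 1.13% in TGFb replicate 1). Among the libraries of at least 500 counts, SB had 1.88% and 2.80%, and TGFb had 1.02% to 1.48%. Of the 47 tested miRNAs, 1 was lower in TGFb than in SB without overlap (2.13%) and 3 were higher (6.38%), and no member alone was separated. Those are single miRNAs, and how often a sum over several miRNAs separates was not counted. In NT the sum was 1.90%, 0.888% and 1.29% in replicates 1, 3 and 4, and in FGF it was 0.870%, 2.07% and 3.69% in replicates 2 to 4. NT overlapped with every other group, and FGF spanned nearly the whole range. The mean and SD were 2.52% ± 0.688 over the 4 SB libraries and 1.14% ± 0.264 over the 4 TGFb libraries, with 1.36% ± 0.509 over the 3 NT and 2.21% ± 1.41 over the 3 FGF libraries. Markers of endothelium, hepatocytes and cardiomyocytes also had lower means in TGFb than in SB. Endothelial miR-126 was at 0.364% ± 0.353 in TGFb and 1.38% ± 1.81 in SB (SD, n = 4 each), hepatocyte miR-122-5p at 0.0604% ± 0.0631 and 1.17% ± 1.86, and the cardiomyocyte list at 0.0181% ± 0.0361 and 0.383% ± 0.405. The ranges of these markers overlapped, and their part in the family's difference was not tested. In SB replicate 2, miR-126 and miR-122-5p each reached 3.91%, from 7 counts of 179, which raises their SB means. The red cell and serum list was at 0 in TGFb and 0.00653% in SB. The pluripotent list was nearly equal, at 0.00669% in TGFb (2 counts) and 0.00653% in SB (1 count). No test is given for a sum over members. In the adjusted values SB (1.56% to 4.94%) and TGFb (0.797% to 1.46%) did not overlap either.

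**Figure D4:**
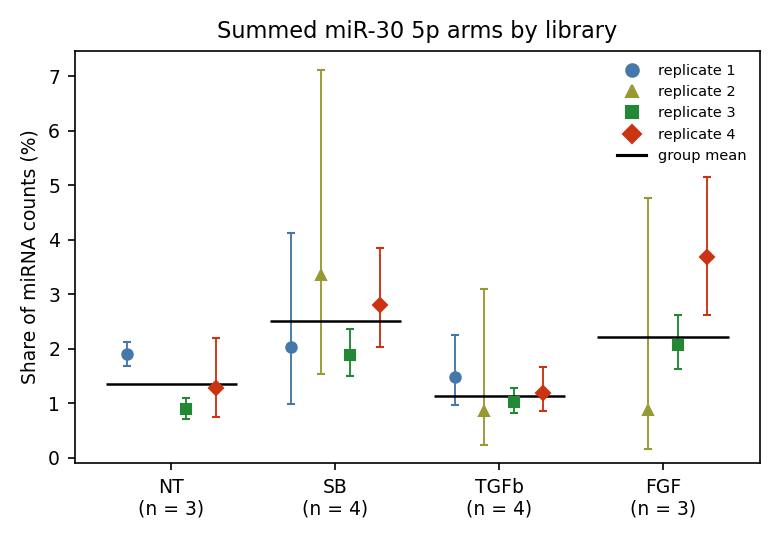
Summed share of the 5 members (% of all miRNA counts, y axis) in each library by group (x axis), with 95% Wilson intervals, replicate numbers as symbols and group means as black lines. The observed shares of the 4 SB libraries (1.88% to 3.35%) lie above those of the 4 TGFb libraries (0.866% to 1.48%), but their intervals overlap. FGF replicate 4 is the highest at 3.69%.

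Maturation under the TGF-β receptor inhibitor was compared with no additive. The inhibitor was present for all 8 days, so the stage of the cells cannot be told apart from the inhibitor itself. Neither tested member passed an adjusted p of 0.05 in edgeR's quasi-likelihood test over 47 miRNAs. miR-30a-5p had a log2 fold change of 2.00 in SB over NT (SE 1.36, 95% interval −0.80 to 4.81, edgeR adjusted p = 0.456). Its mean share was 0.707% ± 0.751 (SD) over the 4 SB libraries and 0.244% ± 0.389 over the 3 NT libraries. miR-30d-5p had 0.27 (SE 0.78, interval −1.33 to 1.86, adjusted p = 0.930), and its sign turned with the filter and the libraries used. Its share was higher in SB in 3 of the 3 numbers that both groups have, as was the family's. In this comparison 2.13% of all tested miRNAs (1 of 47) passed. The absence of a miR-30a-5p call rests on NT replicate 4: without it, the log2 fold change was 4.46 (edgeR adjusted p = 0.0192). NT then held only replicates 1 and 3 while SB kept its replicate 4, and without all libraries numbered 4 it was 2.73 (adjusted p = 0.336).

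TGF-β1 followed by its withdrawal, compared with no additive, gave no member past the threshold, where 0% of the 47 tested miRNAs passed. The log2 fold change was 1.22 for miR-30a-5p (SE 1.33, 95% interval −1.52 to 3.96, edgeR adjusted p = 0.935) and −0.52 for miR-30d-5p (SE 0.76, interval −2.09 to 1.04, adjusted p = 0.935). miR-30a-5p took 0.353% ± 0.311 of counts in TGFb (SD, n = 4). It was above NT in 3 of the 3 replicate numbers that both groups have. In numbers 1, 3 and 4 it was 0.141%, 0.0802% and 0.758%, against 0.0404%, 0 and 0.693% in NT. Tallies by replicate number here and in the other comparisons are description only. They were not made for the other tested miRNAs, and no label says what a number marks. Single libraries moved the log2 fold change of miR-30a-5p widely. It was 3.65 without NT replicate 4 (edgeR adjusted p = 0.0879) and 0.025 without TGFb replicate 4 (adjusted p = 0.985).

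Basic FGF, compared with no additive, gave the largest difference among the 12 computed for members, and it did not pass: miR-30a-5p had a log2 fold change of 2.53 (SE 1.42, 95% interval −0.37 to 5.44, edgeR adjusted p = 0.320). Its mean share over the 3 FGF libraries was 1.16% ± 0.915 (SD), against 0.244% ± 0.389 over the 3 NT libraries. The ranges overlapped, since FGF replicate 3 (0.432%) lay below NT replicate 4 (0.693%). FGF was the higher in 2 of 2 shared numbers, 0.432% against 0 in number 3 and 2.19% against 0.693% in number 4. miR-30d-5p had a log2 fold change of −0.86 (SE 0.84, interval −2.59 to 0.87, adjusted p = 0.710), although FGF was also the higher in both shared numbers (1.14% against 0.793%, and 0.691% against 0.396%). FGF replicate 2, with 0 of 115 counts, and NT replicate 1, the highest NT library, have no partner of their number in the other group. Here 2.13% of the tested miRNAs (1 of 47) passed. Without NT replicate 4 miR-30a-5p passed (5.01, edgeR adjusted p = 0.00850), and without all libraries numbered 4 it did not (3.48, adjusted p = 0.133).

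The 3 comparisons among the treated groups also gave 0 members past the threshold, and 0% of the 47 tested miRNAs passed in each. In TGFb over SB the log2 fold change was −0.79 for miR-30d-5p (SE 0.75, 95% interval −2.32 to 0.74, edgeR adjusted p = 0.879) and −0.78 for miR-30a-5p (SE 1.18, adjusted p = 0.907). In FGF over SB it was −1.13 for miR-30d-5p (SE 0.83, interval −2.84 to 0.59, adjusted p = 0.839) and 0.53 for miR-30a-5p (SE 1.25, adjusted p = 0.945). In TGFb over FGF it was 0.34 for miR-30d-5p (SE 0.82, adjusted p = 0.970) and −1.31 for miR-30a-5p (SE 1.24, interval −3.85 to 1.23, adjusted p = 0.888). miR-30a-5p was lower in TGFb than in FGF in 3 of the 3 numbers they share. Every interval spans 0 and is wide, so these values do not show that members were at the same level. The test over the 4 groups gave 0 members as well, with 0% of all tested miRNAs passing. In edgeR 0 of the 2 members had an unadjusted p under 0.05 in any comparison, and DESeq2 also called 0. DESeq2 passed 4.26% of all tested miRNAs over the 4 groups, 6.38% in SB against NT, 0% in TGFb against NT and in TGFb against SB, and 2.13% in each of the other 3 comparisons. With the replicate number as a block edgeR called 0 members too, and 8.51% of all tested miRNAs over the 4 groups. By comparison the block passed 2.13% in each of SB over NT and FGF over SB, 4.26% in FGF against NT and in TGFb against FGF, 6.38% in TGFb against SB and 0% in TGFb against NT. By shares alone, no member was separated in any of the 6 comparisons. The share of tested miRNAs separated upwards was 2.13% in SB over NT, 0% in TGFb over NT, 8.51% in FGF over NT, 8.51% in FGF over SB and 4.26% in TGFb over FGF. Downwards it was 6.38%, 8.51%, 8.51%, 2.13% and 10.6% in the same order. The 3 comparisons with NT share the NT libraries.

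**Figure D5:**
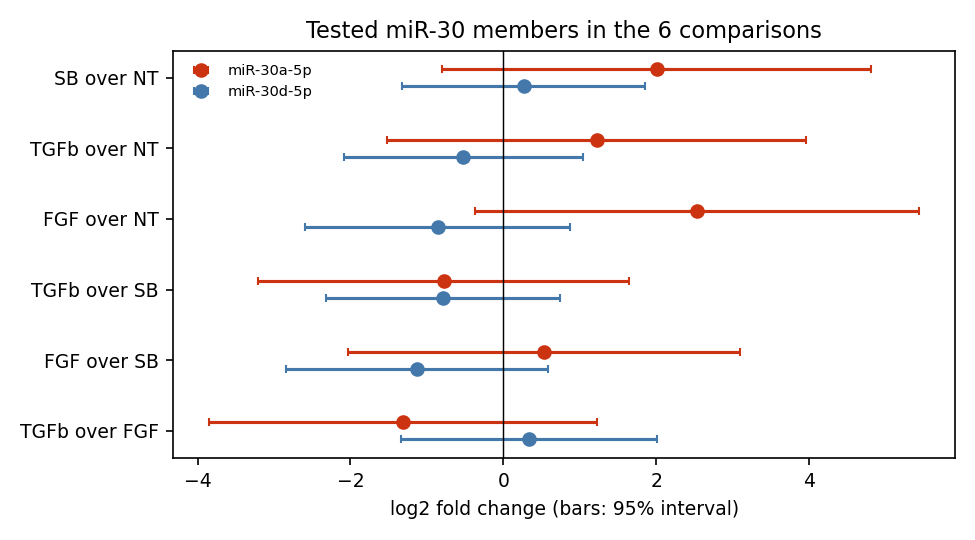
Log2 fold change (x axis) of miR-30a-5p and miR-30d-5p in the 6 comparisons (y axis), as edgeR estimates with 95% intervals from its standard errors. Each interval spans 0, and the largest estimate is 2.53 for miR-30a-5p in FGF over NT.

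Other miRNAs known for repressing matrix genes in heart were scarcer than miR-30. Of 5 (miR-29a-3p, miR-29b-3p, miR-29c-3p, miR-133a-3p and miR-133b), 4 were detected, with 62 counts in all against 732 for the miR-30 family, and 0 could be tested. Their sum took 0.283% ± 0.227 of counts (SD, n = 14). Most of it was miR-29a-3p, a repressor of collagen genes, which had at most 12 counts in a library. Among other seed families, let-7 took 6.53% ± 4.23 (SD, n = 14; 9 of 9 members detected), a list of 9 around miR-15/16 took 2.48% ± 1.63 (6 detected) and miR-181 took 1.30% ± 0.685 (2 of 4). The miR-30 share was within 1 SD of the last 2.

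The non-members whose log2 level followed the summed family most closely over the 14 libraries were miR-320c (Pearson r = 0.57), miR-10a-5p (0.57) and miR-148b-3p (0.56), among 45 compared with a median of 0.13. In the 10 libraries of at least 500 counts the values were −0.28, −0.09 and 0.00, so the likeness rests on the 4 shallow libraries. The points share library depth and the common total.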

How the data were processed

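Small RNA of EVs was sequenced with the QIAseq miRNA kit after precipitation with polyethylene glycol, per the labels' protocols. The deposited raw table holds whole-number counts per mature miRNA with no normalization. The build GRCh38 is named in the submitters' processing notes; the aligner and the use of molecular identifiers are not given in the sources used here. A second table, deposited by the authors, holds adjusted values, treated as a score because they are no longer counts; its 2 lines that name no miRNA were left out.

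The 14 libraries were grouped by the labels. Shares are raw counts over the library total. Groups were compared with edgeR 4.0.16 (quasi-likelihood, robust, TMM) in R 4.3.3, in 1 fit of all libraries with group means. filterByExpr with a minimum count of 10 kept 47 miRNAs, and p-values were adjusted by Benjamini-Hochberg over these within each comparison, with a threshold of 0.05. Standard errors are the absolute log2 fold change over the square root of F. The edgeR steps of the SB against NT comparison were also run on simulated counts. The changes put in were larger than any estimate for a member in the main fit, so smaller changes were not tried. Log2 levels used a prior count of 2. The 18 pairs of replicates within groups differed beyond counting noise (resampled chi-square, p = 0.0005 in each, the smallest that 2000 resamples give). None were therefore merged in the fits. Pooled shares in the text are sums over libraries. Their Wilson intervals leave out this spread between libraries and are too narrow as a measure of it.

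Totals ran from 115 to 14862, so 1 count is 0.870% of the shallowest and 0.00673% of the deepest library. Alternatives were RLE factors, library size only, DESeq2 1.42.0, no filter, a mean of at least 5 counts, the replicate block, the adjusted values (limma 3.58.1 on log2 values), libraries of at least 500 counts, only the 2 groups compared, and each library left out. Leaving out all libraries numbered 4 was added after the values were seen. The members, lists and alternatives were chosen with earlier results of these data known. The rule for names took all 5 members, detected members of the lists, and the 3 tested non-members most like the summed family; the cell type markers are named from their list, and the other miRNAs highest in the libraries numbered 4 were named after their values were seen.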

Additional observations from a re-analysis of the deposited data

Results flagged for a closer look

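In SB and TGFb, which have 4 libraries each, the spread of 10 sets of shares was searched for a single distant library. This held for 1 set. miR-30c-5p in SB had a share of 0.0261% in replicate 3 and 0 in the other 3 libraries. That value is 1 count of 3826, and any set with counts in a single library meets this measure whatever the value, so it carries no information here. The other SB libraries held 179 to 1286 counts, and 0 counts there allow shares of up to 0.233% or more, so no difference between these libraries was detectable at this depth.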

How the results depend on the processing

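No member was called in any of the 9 planned settings other than leaving out a library, nor without all libraries numbered 4. Leaving out single libraries gave 0 to 1 members called in SB against NT and 0 to 1 in FGF against NT, in both cases miR-30a-5p without NT replicate 4, and 0 in the other comparisons. miR-30d-5p in SB against NT turned from 0.27 to −0.38 with no filter, −0.079 with a mean of at least 5 counts, −0.48 in libraries of at least 500 counts and −0.36 without the libraries numbered 4. In TGFb against FGF it turned from 0.34 to −0.25 with library size only and −0.071 with the replicate block. Leaving out single libraries moved it from −0.62 to 0.76 in SB against NT, −1.07 to 0.31 in TGFb against NT and −0.034 to 1.52 in TGFb against FGF. miR-30a-5p then ran from 0.42 to 4.46 in SB against NT, 0.025 to 3.65 in TGFb against NT, 1.16 to 5.01 in FGF against NT, −2.46 to −0.080 in TGFb against FGF, −2.01 to 0.61 in TGFb against SB and −0.39 to 1.92 in FGF against SB. In fits of only the 2 groups compared, miR-30a-5p did not pass the filter in SB against NT, TGFb against SB and FGF against SB, so those gave no value for it. The cause of these turns was not tested. With 1 library left out, mean family shares ran from 1.09% to 1.59% in NT and 2.24% to 2.73% in SB. They ran from 1.02% to 1.23% in TGFb and 1.47% to 2.88% in FGF.

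Deviations from the group mean correlated at 0.307 on average between same-numbered libraries of different groups (18 pairs, 15 above 0.1), and 9 of 14 correlated best with one of their own number, a hint from the data and not the design. The other 3 pairs were at or under 0.1. Between libraries of different number and group the mean was −0.0949 (55 pairs). No pairing was assumed in the main fit because no label says what a replicate number marks. With the replicate block miR-30a-5p had 2.06 in SB against NT (edgeR adjusted p = 0.290) and 2.76 in FGF against NT (adjusted p = 0.116), and no member was called. Over all 47 miRNAs the block raised calls from 0 to 4 among the 4 groups. The biological coefficient of variation, edgeR's measure of the spread between libraries, was 0.778 without the block and 0.573 with it.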
